A study of Mus musculus with 9 samples.

Results

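The BCL-2 family decides whether a cell's mitochondria are opened during apoptosis. Its 10 members described here were taken by symbol from the expression table of 54532 genes, and all 10 passed the filter of 1 FPKM in at least 3 libraries that 12289 genes passed. Levels are in FPKM, fragments scaled by exon length and by a factor per library, so genes of a library can be set side by side. Pro-survival members (Mcl1, Bcl2l1 encoding BCL-XL, Bcl2, and the A1 genes Bcl2a1a, Bcl2a1b and Bcl2a1d) hold the effectors in check. BH3-only members (Bcl2l11 encoding BIM, Bbc3 encoding PUMA, and Bmf) bind the pro-survival proteins after stress or loss of growth factors. Bax is an effector that forms pores in the outer mitochondrial membrane. Neutrophils are short-lived and depend on MCL-1, a protein with rapid turnover, and A1 is a further survival protein of blood cells.

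The 9 RNA-seq libraries came from cells labelled as myeloid, from C57BL/6 mice of 6-8 weeks, in 3 groups of 3 with the letters A, B and C. Genotype was labelled wild type for the groups fl and Gr_1 and SOCS3 KO for the group KO. SOCS3 is the feedback inhibitor of cytokine signalling through STAT3. The labels do not spell out what fl and Gr_1 stand for, which cells the deletion was made in, or whether each library is its own animal. The p-values therefore reflect only how far these libraries scatter, and part of that scatter may be technical.

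Recovered depth was 18.3 to 21.5 M fragments per library, while the denominators behind the deposited values were 16.0 to 18.2 M in Gr_1 and 18.5 to 22.0 M in the other groups. Gr_1 levels therefore stand 1.23-fold higher relative to fl than they would on recovered depth, and values scaled to that depth are given below where they change a call, a direction or the size of a change by much. Scaling to that depth moved the median change of all tested genes in Gr_1 against fl from -0.03 to -0.26, so changes on that scale include this shift. Which scaling is the better one was not tested. Socs3 was not reduced in KO (8.12 ± 1.25 FPKM, against 3.76 ± 0.318 in fl and 35.5 ± 2.21 in Gr_1; SD, n = 3 each), while Lyz2, the lysozyme gene of neutrophils and macrophages, averaged 56.3 FPKM in KO, 9165 in fl and 10663 in Gr_1. All directions given for KO therefore rest on its label. Library KO B carried the female transcript Xist at 58.5 FPKM and no Y-linked RNA, KO A had 26.5 FPKM summed over 4 Y-linked genes with Xist at 0.00280, and KO C had both, at 14.2 and 26.3 FPKM. KO C also lay between KO A and KO B in 61.5% of tested genes, while the other 8 libraries lay between the other two of their group in 15.6% to 44.4%. All fl and Gr_1 libraries had Xist at 0.0104 FPKM or less and 16.6 to 39.3 FPKM summed over the Y-linked genes. Xist RNA at such levels as in KO B and KO C was thus seen only in KO. In comparisons with KO, sex therefore cannot be fully told apart from the group. Whether KO C is a separate replicate beside KO A and KO B was not tested. If it is not, the SDs of KO and the p-values of fits with KO C count more libraries than are independent. Changes of the 10 members in KO are therefore given with and without KO C. The 10 myeloid markers were all at a mean of 1 FPKM or more in every group. The sum of 12 late neutrophil markers was 653 to 685 FPKM in fl, 1423 to 3307 in KO and 10457 to 11358 in Gr_1, with Stfa2l1 at 0 in at least 1 library, and 11 of the 12 were called higher than in fl both in KO and in Gr_1. The other, Wfdc17, was called lower in Gr_1 (means 91.1 FPKM in fl, 56.8 in KO and 58.8 in Gr_1). The sum of 8 early granulocyte markers was 5291 to 7461, 4678 to 8102 and 956 to 1097 FPKM (0 called in KO, 7 lower in Gr_1). That of 12 monocyte and macrophage markers was 1281 to 1444, 795 to 865 and 505 to 558 FPKM (10 of 12 called lower in KO and 12 of 12 in Gr_1). Those of 12 basophil, mast cell and eosinophil markers were 4153 to 8836, 4811 to 9508 and 1481 to 1875 FPKM (8 called higher in KO, 1 higher and 3 lower in Gr_1), and those of 9 NK cell markers 141 to 205, 135 to 263 and 16.2 to 23.4 FPKM (of 7 tested, 4 higher in KO and 4 lower in Gr_1). Nkg7 made up most of the NK sum (means 158 FPKM in fl, 169 in KO and 16.5 in Gr_1). Ncr1, Gzma and Gzmb had means of 0.743, 4.13 and 1.72 FPKM in fl and 3.17, 8.89 and 5.21 in KO, and 0 NK markers were called lower in KO. Prg2 made up most of the basophil, mast cell and eosinophil sum (means 5333, 6252 and 1401 FPKM). In bulk RNA, fewer cells of a type and less RNA per cell cannot be told apart, and the part of these markers in the results below was not tested.

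The A1 genes are near-identical copies on chromosome 9, and the sequences below show how few positions tell their fragments apart. Over 519 coding bases, 12 positions differed among the 3 genes (97.69% identity), and 7 of them fall in the first 96 bases. Capitals mark the positions at which the 3 genes are not all the same (GENCODE M21 transcripts).
Bcl2a1a: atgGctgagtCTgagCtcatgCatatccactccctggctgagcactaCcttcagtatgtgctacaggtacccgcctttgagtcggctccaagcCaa
Bcl2a1b: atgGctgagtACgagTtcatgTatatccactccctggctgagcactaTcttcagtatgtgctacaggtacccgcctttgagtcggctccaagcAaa
Bcl2a1d: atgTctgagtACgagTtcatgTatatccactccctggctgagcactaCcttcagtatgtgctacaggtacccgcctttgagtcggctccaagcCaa
Between pairs, identity was 97.88% for Bcl2a1a and Bcl2a1b, 98.65% for Bcl2a1a and Bcl2a1d, and 98.84% for Bcl2a1b and Bcl2a1d. Of all 150-base windows of the transcript, 71.79% were found in no other gene's transcripts for Bcl2a1a, 58.08% for Bcl2a1b and 69.75% for Bcl2a1d, against 95.04% to 100% for the other 7 members. The annotated gene Gm29094 shares 49.08% of the exon bases of Bcl2a1b on the same strand, and was listed at 0 in all 9 libraries. The sources used here do not say how fragments of such shared sequence were divided, so values of the single A1 genes are uncertain.

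The death-promoting members share a short BH3 segment, through which they bind the groove of the pro-survival proteins. To set the segment of the BH3-only members beside that of Bax, 39 coding bases around it are shown, with the 6 codons of its core in capitals, from GENCODE M21 transcripts.
Bcl2l11: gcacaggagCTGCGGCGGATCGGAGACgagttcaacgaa
Bbc3: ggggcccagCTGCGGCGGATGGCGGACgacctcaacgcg
Bmf: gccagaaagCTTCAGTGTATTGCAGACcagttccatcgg
Bax: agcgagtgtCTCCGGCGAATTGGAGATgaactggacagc

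Mcl1, which encodes MCL-1, was the most abundant member in every library. It lies on the plus strand at chr3:95658788-95663176 (GRCm38, as for all coordinates). Its levels were 183, 186 and 184 FPKM in fl A, B and C, 198, 141 and 176 in KO, and 373, 379 and 398 in Gr_1. The Gr_1 libraries stood above all others and did not overlap them, while KO A lay above and KO B and KO C below the narrow fl range. The mean was 2.08-fold higher in Gr_1 (383 ± 12.8 FPKM) than in fl (184 ± 1.67), a change of 1.05 ± 0.11 in log2(FPKM + 1) (standard error; limma, Benjamini-Hochberg adjusted p = 6.55e-05). Against KO (172 ± 28.5) Gr_1 was 2.23-fold higher (a KO minus Gr_1 change of -1.17 ± 0.11, adjusted p = 7.27e-05, and -1.19 without KO C, adjusted p = 0.000603). KO and fl differed by -0.12 ± 0.11 (95% interval -0.37 to 0.14, limma adjusted p = 0.556, and -0.14 without KO C, adjusted p = 0.617), and the sign turned without KO B (0.02) and under quantile normalization (0.05).

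Bcl2l1 rose in Gr_1 as well, on a far lower level. This gene, on the minus strand at chr2:152780668-152831728, encodes BCL-XL. It was at 8.74, 8.12 and 9.75 FPKM in fl, 8.63, 8.80 and 9.43 in KO, and 15.0, 12.4 and 13.5 in Gr_1. All KO values fell inside the fl range, and all Gr_1 values were above both. Gr_1 was 1.54-fold above fl (0.57 ± 0.09, limma adjusted p = 0.000517) and 1.53-fold above KO (KO minus Gr_1 -0.56 ± 0.09, adjusted p = 0.000813, and -0.59 without KO C, adjusted p = 0.00304). Scaled to recovered depth, these were 0.30 (adjusted p = 0.0113) and -0.24 (adjusted p = 0.0296). The difference between KO and fl was 0.01 ± 0.09 with a 95% interval of -0.18 to 0.21, and its sign turned without fl B (-0.04) or KO C (-0.02).

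Bcl2, the founding survival gene of the family, went the other way. It lies on the minus strand at chr1:106538178-106714274. Its levels were 1.86, 2.06 and 1.84 FPKM in fl, 1.89, 2.81 and 2.45 in KO, and 0.954, 1.161 and 1.10 in Gr_1, so that the Gr_1 libraries were the 3 lowest and KO overlapped fl through KO A. Gr_1 was 1.79-fold below fl (-0.49 ± 0.11, limma adjusted p = 0.00440), and KO was 2.22-fold above Gr_1 (0.70 ± 0.11, adjusted p = 0.000892, and 0.68 without KO C, adjusted p = 0.00534). KO and fl differed by 0.20 ± 0.11 (95% interval -0.05 to 0.46, adjusted p = 0.291, and 0.18 without KO C, adjusted p = 0.502). Bcl2 is also a gene of lymphocytes and progenitors. Markers of T cells summed to 5.45 to 8.08 FPKM in fl, 20.8 to 28.2 in KO and 17.4 to 18.3 in Gr_1. Of 12, 6 were tested, with 5 called higher in KO and 3 in Gr_1, and 9 had a mean under 1 FPKM in Gr_1. That Gr_1 sum came mostly from Il7r, Cd3d and Lck (means 7.19, 4.04 and 3.68 FPKM). Trac and Trbc1 were at means of 0.446 and 0.579 FPKM there, beside 0.401 and 1.24 in fl. Markers of B and plasma cells summed to 161 to 194, 138 to 166 and 430 to 468 FPKM (12 of 12 tested, 11 higher and 1 lower in Gr_1). Those of progenitors summed to 35.9 to 43.6, 53.5 to 75.1 and 40.2 to 49.4 FPKM (7 of 10 tested). The part of these markers in the level of Bcl2 was not tested. Of the exon bases of Bcl2, 6.094% overlap D630008O14Rik on the other strand, and the sources used here do not say whether counting used strand.

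The A1 genes were low, at 10 to 80 fragments per library and gene, and only Bcl2a1d passed a test. Bcl2a1d (minus strand, chr9:88723285-88731914) was at 4.21, 4.24 and 4.14 FPKM in fl, 2.27, 2.82 and 2.77 in KO, and 1.88, 2.17 and 2.53 in Gr_1. Every fl library lay above every library of the other groups, and KO and Gr_1 overlapped. It was 1.6-fold lower in KO (-0.52 ± 0.10, limma adjusted p = 0.0105, and -0.55 without KO C, adjusted p = 0.0374) and 1.91-fold lower in Gr_1 (-0.71 ± 0.10, adjusted p = 0.000261) than in fl. KO and Gr_1 differed by 0.18 ± 0.10 (adjusted p = 0.135, and 0.15 without KO C, adjusted p = 0.307), a difference that passed once libraries were rescaled without the 10 most abundant genes (0.33, adjusted p = 0.0233) or scaled to recovered depth (0.42, adjusted p = 0.00749).

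Bcl2a1a and Bcl2a1b passed no test. Bcl2a1a (plus strand, chr9:88956900-88962419) was at 0.832, 0.941 and 0.660 FPKM in fl, 0.922, 1.40 and 1.74 in KO, and 1.75, 1.28 and 0.915 in Gr_1. Bcl2a1b (plus strand, chr9:89199209-89207827) was at 1.17, 1.65 and 1.06 FPKM in fl, 0.986, 1.13 and 1.13 in KO, and 1.3, 1.42 and 2.37 in Gr_1. These values rest on 10 to 31 fragments per library for Bcl2a1a and 16 to 31 for Bcl2a1b, and the groups overlapped except KO and Gr_1 for Bcl2a1b. Their changes from fl were 0.37 ± 0.17 (limma adjusted p = 0.207) and -0.13 ± 0.16 (adjusted p = 0.641) in KO, and 0.34 ± 0.17 (adjusted p = 0.109) and 0.22 ± 0.16 (adjusted p = 0.257) in Gr_1. For KO against Gr_1 the changes were 0.03 ± 0.17 (adjusted p = 0.908) and -0.35 ± 0.16 (adjusted p = 0.0883), and that of Bcl2a1a turned without KO C (-0.09) or Gr_1 C (-0.10). Without KO C the changes from fl in KO were 0.25 (adjusted p = 0.493) and -0.15 (adjusted p = 0.715), and that of Bcl2a1b against Gr_1 was -0.37 (adjusted p = 0.146).

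Summing the 3 A1 genes removes the division of shared fragments only if these were split among the 3 genes, which is unknown. Shared fragments that were left uncounted would be missing from the sum as well, so it is also uncertain. The sums were 6.21, 6.83 and 5.86 FPKM in fl, 4.18, 5.35 and 5.64 in KO, and 4.93, 4.86 and 5.82 in Gr_1. The lowest fl library lay just above the highest of the other groups. The sum did not pass the test in KO against fl (-0.28, limma adjusted p = 0.151), in Gr_1 against fl (-0.24, adjusted p = 0.0896) or in KO against Gr_1 (-0.04, adjusted p = 0.783). Without KO C the sum differed by -0.35 from fl (adjusted p = 0.163) and by -0.11 from Gr_1 (adjusted p = 0.483).

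Bbc3, which encodes PUMA, was lower than in fl both in KO and in Gr_1, and the order of KO and Gr_1 depended on the scaling. The gene lies on the plus strand at chr7:16308393-16318205. It was at 8.75, 9.16 and 8.66 FPKM in fl, 5.69, 5.18 and 5.11 in KO, and 6.08, 6.48 and 6.88 in Gr_1. The 3 groups did not overlap. KO was 1.66-fold below fl (-0.64 ± 0.07, limma adjusted p = 0.00104), and the change was -0.62 without KO C (adjusted p = 0.00877). Gr_1 was 1.37-fold below fl (-0.40 ± 0.07, adjusted p = 0.000903). KO was below Gr_1 by 0.24 on the log2 scale (-0.24 ± 0.07, adjusted p = 0.0142), a call that ended without KO C (-0.22, adjusted p = 0.0605) and on rescaled values (-0.06, adjusted p = 0.536). Scaled to recovered depth it turned (0.05, adjusted p = 0.564), while the change from fl to Gr_1 was -0.66 there.

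Bmf, a BH3-only gene whose protein is held at the cytoskeleton in healthy cells, was lowest in KO. It lies on the minus strand at chr2:118528757-118549687. Its levels were 6.45, 8.04 and 8.92 FPKM in fl, 4.61, 3.66 and 3.89 in KO, and 5.78, 6.55 and 8.63 in Gr_1. The 3 KO libraries lay below all 6 others, while fl and Gr_1 overlapped. KO was 1.93-fold below fl (-0.80 ± 0.15, limma adjusted p = 0.0117) and 1.73-fold below Gr_1 (-0.65 ± 0.15, adjusted p = 0.00587). Without KO C the first change was -0.77 and was no longer called (adjusted p = 0.0527), and the second was -0.63 (adjusted p = 0.0223). Gr_1 and fl differed by -0.15 ± 0.15 (95% interval -0.49 to 0.20, adjusted p = 0.422). Scaled to recovered depth that difference was called (-0.40, adjusted p = 0.0343) and the one between KO and Gr_1 was not (-0.36, adjusted p = 0.0519).

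Bcl2l11, which encodes BIM, was also lower in KO as deposited, with smaller gaps, none of which passed the test. It lies on the plus strand at chr2:128126038-128162547. It was at 4.4, 4.50 and 5.13 FPKM in fl, 3.78, 3.73 and 4.09 in KO, and 4.37, 4.17 and 4.99 in Gr_1. All KO libraries lay below all others. The change in KO was -0.22 ± 0.08 against fl (95% interval -0.41 to -0.03, unadjusted p = 0.0264, limma adjusted p = 0.131) and -0.18 ± 0.08 against Gr_1 (adjusted p = 0.0971). Without KO C these were -0.25 (adjusted p = 0.206) and -0.21 (adjusted p = 0.114), and the second was -0.01 on rescaled values (adjusted p = 0.961). Gr_1 and fl differed by -0.04 ± 0.08 (adjusted p = 0.672), with the sign turned without fl C (0.01) or Gr_1 B (0.0016). Scaled to recovered depth the change in Gr_1 against fl was -0.28 and was called (adjusted p = 0.0134), and KO against Gr_1 turned (0.10, adjusted p = 0.323). On that scale the median change of all genes in Gr_1 against fl was -0.26.

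The 3 BH3-only members together held 21.3 ± 1.58 FPKM in fl, 13.2 ± 0.767 in KO and 18.0 ± 2.23 in Gr_1. Among the 10 members, these were the 3 whose KO libraries all lay below all fl and Gr_1 libraries, an order that 4.56% of all tested genes had. The BH3-only genes Pmaip1, Bid and Bad, read below, are outside this sum and did not have that order. In fl, KO and Gr_1 their means were 27.6, 19.9 and 10.9 FPKM for Pmaip1, 17.7, 16.6 and 18.8 for Bid, and 17.2, 14.5 and 13.9 for Bad. Pmaip1 and Bad were thus lowest in Gr_1, and the sum of 3 does not stand for all BH3-only genes. By means, KO was below both other groups in 5 of 10 members (also Mcl1 and Bcl2a1b), against 22.8% of all genes. Without KO C, the same 3 members had every remaining KO library below all others (5.26% of all genes). On values rescaled without the 10 most abundant genes, or scaled to recovered depth, Bmf alone had that order (1.68% and 1.86% of all genes), so the position of Bbc3 and Bcl2l11 below Gr_1 depended on the scaling. Relative to the median of all genes in KO against Gr_1, Bbc3 changed by -0.251 as deposited and -0.239 rescaled. Bcl2l11 changed by -0.186 and -0.185 in the same way.

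Bax, the effector, was lower in Gr_1 than in fl, with KO between them. It lies on the minus strand at chr7:45461697-45466898. Its levels were 31.1, 35.5 and 26.2 FPKM in fl, 22.4, 24.4 and 23.4 in KO, and 19.4, 17.2 and 15.2 in Gr_1, with no overlap between groups. Gr_1 was 1.79-fold below fl (-0.80 ± 0.12, limma adjusted p = 0.000413), and KO was 1.35-fold above Gr_1 (0.42 ± 0.12, adjusted p = 0.0148, and adjusted p = 0.0424 without KO C). That second call ended without Gr_1 C (0.34, adjusted p = 0.0545), and the change was 0.75 when scaled to recovered depth. KO against fl missed the threshold (-0.38 ± 0.12, adjusted p = 0.0779, and -0.38 without KO C, adjusted p = 0.192) and passed it without fl C (-0.49, adjusted p = 0.0270). Of the exon bases of Bax, 12.18% overlap Gm45808 on the same strand.

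**Figure D1:**
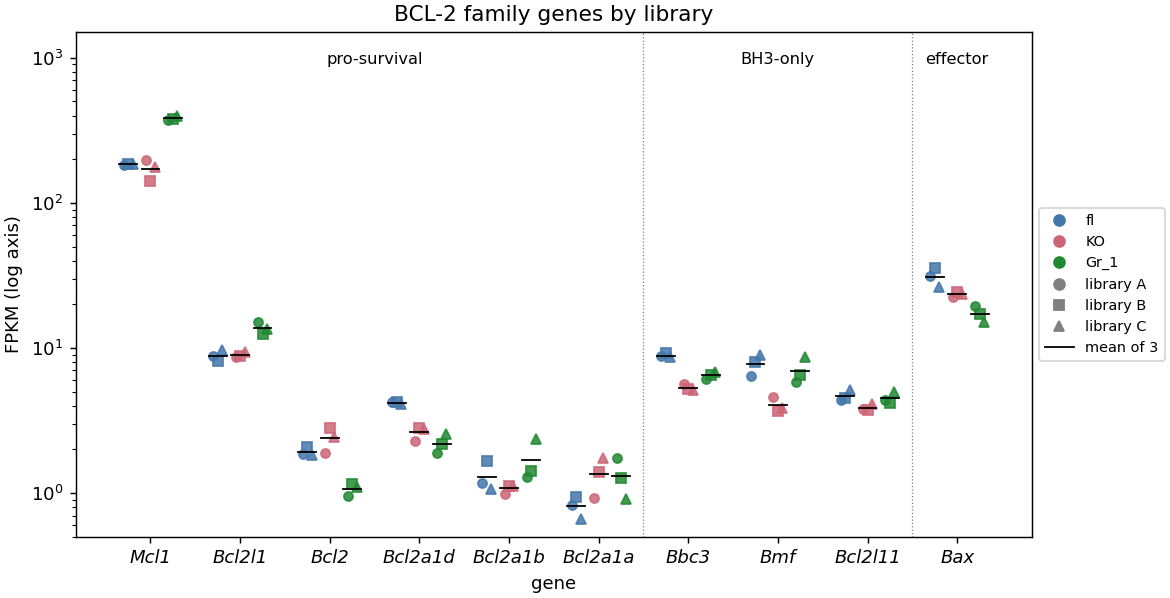
FPKM of the 10 members (log axis) in each library, with colours for the 3 groups, symbols for the library letters and a line at the mean of 3. Mcl1 stands between 373 and 398 FPKM in Gr_1, above all other libraries, and the KO libraries are the lowest for Bmf and, on these deposited values but not on rescaled ones or those scaled to recovered depth, for Bbc3 and Bcl2l11.

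Counted over the family, 3 of 10 members were called in KO against fl, all lower (Bbc3, Bmf and Bcl2a1d), where 11.0% of all tested genes were called, 4.48% higher and 6.52% lower. Unadjusted, 5 of 10 were under 0.05, against 26.3% of all genes, and in 5 of 10 the groups did not overlap, against 31.4% of all genes. Without KO C, 2 of 10 members and 4.71% of the genes then tested were called. The median change of the members was -0.18, beside -0.01 over all genes tested. For all genes, 551 were called higher and 801 lower, on rescaled values 767 and 585, and scaled to recovered depth 734 and 728.

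In Gr_1 against fl, 6 of 10 members were called, Mcl1 and Bcl2l1 higher and Bcl2, Bcl2a1d, Bbc3 and Bax lower. That share is near the 61.4% of all tested genes called (30.0% higher, 31.4% lower), and the 6 of 10 that did not overlap compare with 67.5%. The median change of the members was -0.09 and that of all genes -0.03. Rescaling the libraries without the 10 most abundant genes moved the median of all genes to -0.14 and scaling to recovered depth to -0.26, and the calls over all genes from 3686 higher and 3864 lower to 2955 and 4770, and to 2367 and 5925. Scaled to recovered depth, 8 of 10 members were called, with Bmf and Bcl2l11 lower as well. Relative to the medians of the deposited and rescaled values, Mcl1 changed by 1.08 and 1.06, Bcl2l1 by 0.60 and 0.58, Bbc3 by -0.37 and -0.38, and Bax by -0.77 and -0.79.

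In KO against Gr_1, 6 of 10 members were called, Bcl2 and Bax higher and Mcl1, Bcl2l1, Bbc3 and Bmf lower, where 55.7% of all genes were called (26.7% higher, 28.9% lower). Libraries did not overlap in 8 of 10 members and in 68.2% of all genes. The median was -0.21 for the members and 0.01 for all genes, and for all genes 0.18 on rescaled values and 0.28 when scaled to recovered depth. The calls over all genes were 3287 higher and 3556 lower as deposited, 5000 and 2452 rescaled, and 6038 and 2022 when scaled to recovered depth, where 5 of 10 members were called (Bcl2, Bax and Bcl2a1d higher, Mcl1 and Bcl2l1 lower). Without KO C, 5 of 10 members and 46.3% of the genes then tested were called. Relative to the medians of the deposited and rescaled values, Bbc3 changed by -0.25 and -0.24 and Bmf by -0.66 and -0.65. The 3 comparisons share their groups, so they are not independent of each other.

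**Figure D2:**
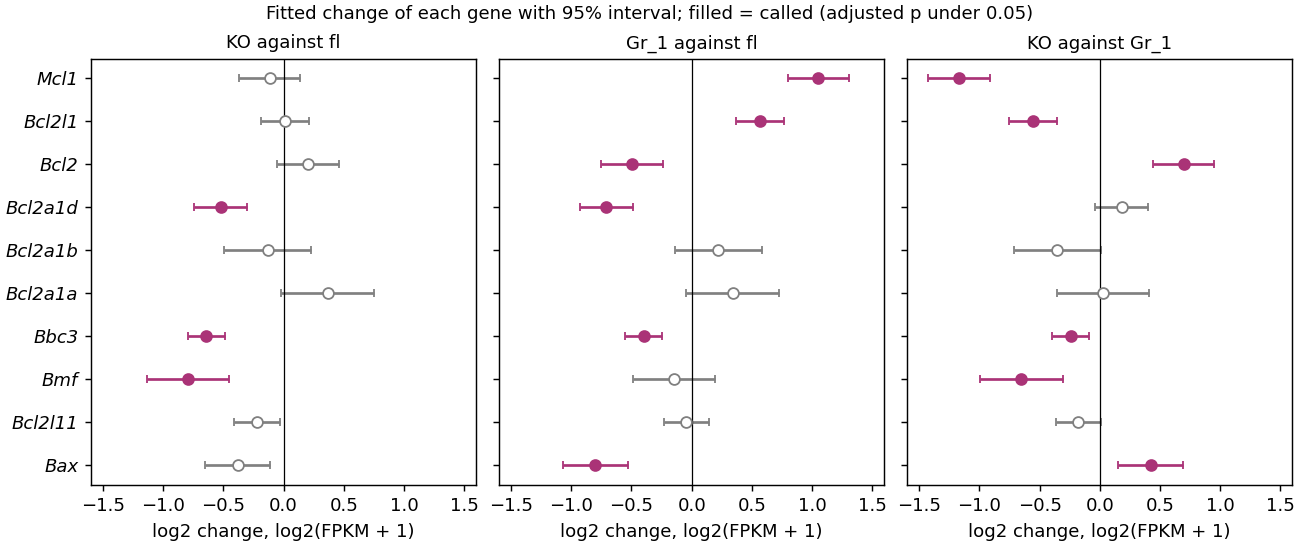
Fitted change in log2(FPKM + 1) of each member with its 95% interval in the 3 comparisons; filled points were called at an adjusted p under 0.05. The 3 filled points of KO against fl are all to the left of 0, while Mcl1 and Bcl2l1 are to the right in Gr_1 against fl.

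Within a library, the members' shares of their summed FPKM show the make-up of the family. Mcl1 held 72.7 ± 1.07% in fl, 76.1 ± 3.57% in KO and 87.4 ± 0.499% in Gr_1. Bax held 12.2 ± 1.61%, 10.6 ± 1.79% and 3.95 ± 0.589%. Mcl1 thus took a larger share in every Gr_1 library (86.8% to 87.8%) than in any other (71.5% to 79.5%). Bcl2l1 held 3.50 ± 0.385%, 4.03 ± 0.525% and 3.12 ± 0.330%, and Bcl2 0.757 ± 0.0319%, 1.09 ± 0.343% and 0.245 ± 0.0235%. The 6 pro-survival genes summed to 201 ± 1.81 FPKM in fl, 188 ± 27.6 in KO and 403 ± 13 in Gr_1. These shares are descriptions without a test, and over the members with 16 other family genes that of Mcl1 was lower (43.2%, 45.2% and 64.7%).

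**Figure D3:**
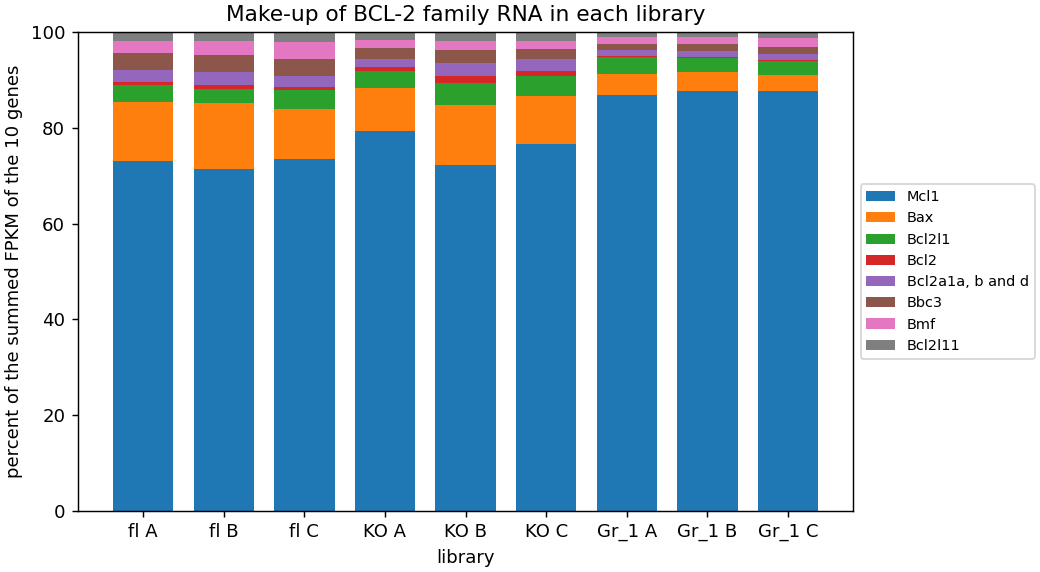
Percent of the summed FPKM of the 10 members held by each, in each of the 9 libraries (stacked bars, A1 genes joined). The Mcl1 part is between 86.8% and 87.8% in the Gr_1 libraries and the Bax part between 3.34% and 4.52%.

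Other genes of the family were read from a list of 16, of which 9 passed the filter. In KO against fl 0 of 9 were called by limma, with 1 under an unadjusted p of 0.05. Bak1, the partner effector of Bax and the most abundant of the list, was at 46.4, 49.4 and 52.8 FPKM in fl, 42.4, 41.6 and 39.5 in KO, and 38.5, 36.4 and 33.8 in Gr_1. Its groups did not overlap, but KO against fl missed the threshold (-0.26 ± 0.07, adjusted p = 0.0535), while Gr_1 against fl passed it (-0.44 ± 0.07, adjusted p = 0.000779). Bnip3l, a mitophagy receptor of the wider family, was at 37.6 ± 1.68 FPKM in KO and 35.9 ± 1.18 in fl (0.07 ± 0.06, adjusted p = 0.516). Without KO C, Bak1 differed from fl by -0.23 (adjusted p = 0.194) and Bnip3l by 0.06 (adjusted p = 0.687).

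In Gr_1 against fl, 2 of the 9 were called higher and 5 lower. The higher genes were Bnip3l (51.2 ± 0.901 FPKM, 0.50 ± 0.06, adjusted p = 0.000102) and its relative Bnip3 (3.70 ± 0.400 in fl and 6.91 ± 0.608 in Gr_1, 0.75 ± 0.11, adjusted p = 0.000345). Bcl2l2, which encodes the survival protein BCL-W, fell from 5.44 ± 0.418 to 2.30 ± 0.164 FPKM (-0.96 ± 0.13, adjusted p = 0.000244) and was at 5.59 ± 1.29 in KO. Bcl2l12 fell by 0.42 (adjusted p = 0.000287). Pmaip1, which encodes the BH3-only protein NOXA that neutralises MCL-1, was at 29.7, 33.2 and 19.8 FPKM in fl, 17.6, 23.1 and 18.8 in KO, and 9.997, 7.91 and 14.7 in Gr_1. It was lower in Gr_1 than in fl (-1.28 ± 0.24, adjusted p = 0.00147) and not called in KO (-0.43 ± 0.24, adjusted p = 0.287, and -0.40 without KO C, adjusted p = 0.478).

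Bid and Bad are further BH3-only genes, and neither was called in KO. Bid, which links death receptors to mitochondria, was at 17.7 ± 1.62 FPKM in fl, 16.6 ± 0.641 in KO and 18.8 ± 0.801 in Gr_1 and was not called in KO (-0.09 ± 0.07, limma adjusted p = 0.507) or Gr_1 (0.09 ± 0.07, adjusted p = 0.328) against fl. Bad, whose protein is silenced by growth factor signalling, was at 17.2 ± 3.02, 14.5 ± 0.408 and 13.9 ± 0.875 FPKM. Its fall in Gr_1 (-0.28 ± 0.11, adjusted p = 0.0482) was called in 1 of the 9 fits that leave out a library, with an adjusted p of up to 0.141. In KO Bad was not called (-0.22 ± 0.11, adjusted p = 0.235). Without KO C the changes in KO were -0.09 for Bid (adjusted p = 0.633) and -0.21 for Bad (adjusted p = 0.422).

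The counts of the next 5 lists stand beside the 11.0% of all genes called in KO and the 61.4% called in Gr_1. Downstream of the pores, cytochrome c released from mitochondria starts the caspases. Of 17 tested genes of the apoptosome, the caspases and their inhibitors, 1 was called higher and 2 lower in KO against fl, and 4 higher and 7 lower in Gr_1. Cycs, the gene of cytochrome c, fell by 0.28 in KO (limma adjusted p = 0.0461) and by 0.52 in Gr_1 (adjusted p = 0.000372), and Htra2, a mitochondrial protease released with it, fell by 0.26 (adjusted p = 0.02) and 0.94 (adjusted p = 3.51e-06). In Gr_1 the inhibitor genes Birc2 and Birc3 rose by 0.57 and 0.54, calls that ended when scaled to recovered depth, and Birc5 fell by 0.48.

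Death receptors reach the family through Bid. Of 11 tested genes of death receptors and necroptosis, 0 were higher and 1 lower in KO, and 4 higher and 4 lower in Gr_1. The receptor gene Fas rose from 6.08 ± 0.270 to 20.5 ± 1.03 FPKM in Gr_1 (1.61 ± 0.18, limma adjusted p = 7.94e-05), and so did Cflar (0.58), which encodes the caspase-8 inhibitor FLIP, and Tnfrsf1a (0.56). The necroptosis genes Mlkl and Ripk3 fell in Gr_1 by 1.157 and 0.67, as did Casp8 by 0.58. In KO the called gene was Ripk3 (-0.27 ± 0.06, adjusted p = 0.0319).

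p53 is a known inducer of Bbc3, Pmaip1 and Bax. Of 10 tested genes of p53 and its targets, 1 was called higher and 1 lower in KO, and 5 higher and 4 lower in Gr_1. Cdkn1a, the p21 gene, was at 23.5 ± 2.27 FPKM in fl, 12.9 ± 1.09 in KO (-0.81 ± 0.18, limma adjusted p = 0.0215) and 9.17 ± 3.01 in Gr_1 (-1.3 ± 0.18, adjusted p = 0.000262). Trp53inp1, a stress gene that also acts in autophagy, rose from 6.10 ± 0.871 to 10.1 ± 2.28 in KO (0.64 ± 0.15, adjusted p = 0.0283) and to 43.3 ± 3.56 in Gr_1 (2.65 ± 0.15, adjusted p = 2.91e-06). In Gr_1 Sesn2 (2.13) and Mdm2 (0.89) also rose, and Aen (-0.76) and Perp (-0.59) fell. Of the 9 calls in Gr_1, that of Ccng1 ended on rescaled values and when scaled to recovered depth.

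Among 17 transcription regulators of the family, 0 were higher and 2 lower in KO, and 6 higher and 3 lower in Gr_1. Foxo3, a known activator of Bcl2l11 and Bbc3, was at 11.1, 11.7 and 12.4 FPKM in fl, 13.6, 9.98 and 11.8 in KO, and 26.98, 26.6 and 26.5 in Gr_1, a rise of 1.12 ± 0.10 in Gr_1 (limma adjusted p = 2.09e-05). Stat3 (0.57) and Stat5b (0.49) rose in Gr_1 and E2f1 (-0.85) and Stat5a (-0.24) fell. The NF-kappaB genes Relb (-0.45 ± 0.12, adjusted p = 0.0437) and Nfkb1 (-0.21 ± 0.06, adjusted p = 0.0445) were lower in KO, but of the 9 fits that leave out a library Relb was called in 2 and Nfkb1 in 0. Nfkb1 was also lower in Gr_1 (-0.15 ± 0.06, adjusted p = 0.0365), called in 3 of those 9 fits.

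Of 13 tested partners and turnover factors of the proteins, 0 were higher and 1 lower in KO, and 4 higher and 5 lower in Gr_1. Bag3, a co-chaperone that binds BCL-2, was at 8.48 ± 0.873 FPKM in fl, 4.80 ± 0.865 in KO (-0.72 ± 0.15, limma adjusted p = 0.0158) and 1.91 ± 0.481 in Gr_1 (-1.71 ± 0.15, adjusted p = 1.88e-05). Gsk3b (0.50), whose kinase marks MCL-1 for destruction, Btrc (0.52), which encodes a ubiquitin ligase subunit for such marked proteins, and Ywhaz (0.43), a 14-3-3 protein that holds BAD, rose in Gr_1, the last not when scaled to recovered depth. Vdac3 (-0.58) and Dynll2 (-0.46), the dynein light chain that tethers BMF, fell.

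All 9 calls of KO against fl in these lists ended when KO C was left out (adjusted p from 0.0545 to 0.156). Leaving out fl A ended 8 (0.0560 to 0.118), fl B 8 (0.0554 to 0.139), KO A 7 (0.0526 to 0.113), Gr_1 A 5 (0.0552 to 0.0752), Gr_1 B 5 (0.0592 to 0.0810), fl C 4 (0.0651 to 0.0816), Gr_1 C 3 (0.0570 to 0.0670) and KO B 2 (0.0737 to 0.0944). No direction turned in these fits, but leaving out a Gr_1 library cannot alter the change from fl to KO, only its adjusted p. On rescaled values Cycs, Htra2, Nfkb1, Relb and Ripk3 were not called (0.0503 to 0.200), and scaled to recovered depth Cycs and Nfkb1 were not (0.0587 to 0.138).

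**Figure D4:**
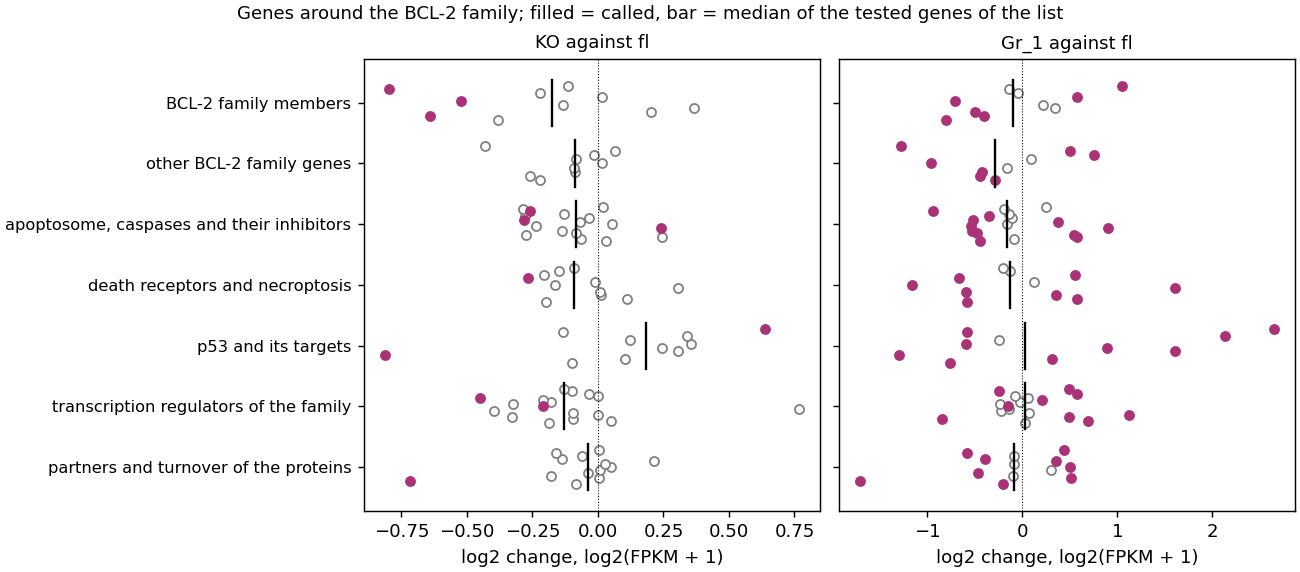
Change in log2(FPKM + 1) against fl of each tested gene of the 7 lists, in KO (left) and Gr_1 (right); filled points were called and bars are list medians. In KO most points are open, with 3 filled points among the 10 members, while in Gr_1 filled points lie on both sides of 0 in every list.

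Promoters were searched for 4 short motifs on both strands, in 17 RefSeq promoters (GRCm38.p6, 250 bases before to 50 after a start) that matched the 10 members. The FOXO motif GTAAACA was found in 2 of the 17 promoters, those of Bcl2l11 and Bbc3 at other starts lacking it, and in 3.65% of all 32851 promoters. The E-box CACGTG was found in 2 of the 17, of Bbc3 and Bax, and in 7.15% of all. The STAT motif TTCNNNGAA (8.3% of all) and the kB motif of NF-kappaB (0.411% of all) were in no promoter of a member. The KO libraries of Bbc3 and Bax, the members with the E-box, all lay below fl, and so did those of Bcl2l11. The stretches with the FOXO motif are shown because both genes, Bcl2l11 and Bbc3, are BH3-only members. Capitals mark the motif, which in Bbc3 is on the other strand. The first lies on the plus strand at chr2:128125788-128125857 and the second on the plus strand at chr7:16310054-16310140.
Bcl2l11: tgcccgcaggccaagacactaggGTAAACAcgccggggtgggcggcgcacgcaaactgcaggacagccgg
Bbc3: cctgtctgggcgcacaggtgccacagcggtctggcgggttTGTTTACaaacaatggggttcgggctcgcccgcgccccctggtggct
A match describes these letters and is not a site of binding, and the promoters of Bmf, whose KO libraries also lay below fl, held none of the 4 motifs.

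The genes whose levels followed a member most closely over the 9 libraries are given as a description, since the libraries fall into 3 groups and any gene with the same group order scores high. For Mcl1 these were Xdh, Zswim4 and Atg7 (Pearson r of 0.998, 0.996 and 0.996), and for Bcl2 Ankrd13b, Snhg17 and B4galt6 (0.992, 0.991 and 0.991). Xdh, the xanthine oxidoreductase gene, had means of 35.3 FPKM in fl, 31.9 in KO and 96.8 in Gr_1. For Bcl2l11 they were D230025D16Rik, Snx33 and Klf13 (0.957, 0.956 and 0.946), where Klf13 had 47.7 FPKM in fl, 32.7 in KO and 41.8 in Gr_1. For Bcl2a1b they were 9430091E24Rik, Cask and Gm15846 (0.939, 0.923 and 0.921).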

How the data were processed

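The authors' deposited table holds FPKM values per gene and library, per the file headers. The submitters' processing notes name featureCounts 1.5.0-p3, DESeq2 1.16.1 and the builds mm10 and GRCm38, and name no aligner. Symbols, coordinates and exon lengths were taken from GENCODE M21, which held 54409 of the table's genes and lacked 123. FPKM times exon length gave the fragments behind each value, whole within 0.02 for 97.2% to 97.5% of values under 1000 fragments. The limma package (3.58.1, under R 4.3.3) was used with its mean-variance trend to fit log2(FPKM + 1) of all 9 libraries, with 1 term per group and no block (6 residual degrees of freedom). The pseudocount of 1 understates changes of low genes. Folds are ratios of mean FPKM. Tests were two-sided, adjusted over 12289 genes by Benjamini-Hochberg and called under 0.05. The exact permutation test of 3 against 3 libraries cannot go below p = 0.1. Sampling noise alone did not account for the differences within any pair of replicates (mean chi-square per gene 4.72 to 53.0). Alternatives were another pseudocount, other filters, 2 other scalings, only the 2 groups compared, the letter as a block, voom on recovered fragments, leaving out each library, and, chosen after seeing the data, FPKM scaled to recovered depth and the summed A1 genes without KO C. The fit was also run on simulated data with 1 spread setting for all genes and libraries. That setting lacks the uneven differences within replicate pairs, so the run cannot tell how the fit handles them.

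Named are the 10 members, Bak1, Bid, Bad, Pmaip1 and Bcl2l2, and from each pathway list up to 3 called genes per direction with the smallest adjusted p against fl, or the 2 most abundant where none was called. For Bcl2, Mcl1, Bcl2l11 and Bcl2a1b the 3 most correlated genes are added. 1 gene that this rule names is counted in its list but not reported here. The members and lists were chosen with earlier results of these data known. Python 3.11.15 served for tables (pandas 2.3.3, numpy 2.4.6, scipy 1.17.1) and plots (matplotlib 3.10.9).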

Additional observations from a re-analysis of the deposited data

How the results depend on the processing

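Of 527 alternative values for the changes of the members and of the summed A1 genes, 507 kept their direction and side of the threshold, 5 lost a call, 5 gained one and 10 turned sign. Other filters, only the 2 groups compared, the letter as a block and leaving out a library of the group not compared leave the change itself the same. In those settings only the call could move, so the count of 507 includes values whose direction could not turn. When scaled to recovered depth, an alternative chosen after seeing the data, Bbc3 (0.0486, called as deposited) and Bcl2l11 (0.0968) turned in KO against Gr_1. The other 8 had not been called. They were Bcl2l1 in KO against fl without fl B or KO C (-0.0413 to 0.0777 over the 9 libraries left out), Mcl1 in KO against fl without KO B (-0.224 to 0.0179) or under quantile normalization (0.0536), Bcl2l11 in Gr_1 against fl without fl C or Gr_1 B (-0.104 to 0.0135), and Bcl2a1a in KO against Gr_1 without KO C or Gr_1 C (-0.103 to 0.165). The cause was not tested. The count of genes called in KO against fl was 1352. It was 794 with only the 2 groups compared, where fewer libraries set the spread, and from 573 to 1261 without 1 library, with 818 without fl A, 730 without fl B and 573 without KO C. voom on recovered fragments called 1619. The letters did not pair the libraries (correlation of same-letter deviations from -0.0618 to 0.140, above 0.1 in 1 of 9 pairs), and with the letter as a replicate block 1037, 7280 and 6469 genes were called in KO against fl, Gr_1 against fl and KO against Gr_1, with the call of every member as without it. Over 26 family genes in place of the 10 members, Mcl1 held 43.2% in fl, 45.2% in KO and 64.7% in Gr_1. The filter of 5 FPKM left Bcl2, Bcl2l11 and the A1 genes untested. Depth limits the A1 genes, at 10 to 80 fragments per library.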
